A study of Mus musculus with 31 samples.

Results

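Kalrn, Trio, Celf4, Icmt and Kmt5b were followed probe by probe on 31 2-colour arrays of neonatal mouse forebrain. The members were all 17 probes whose RefSeq accession led to 1 of these 5 genes, out of 39429 non-control probes on the array design. The genes were chosen by the log2 ratios of their probes at 6 h after MgSO4 on these same arrays, so the 6 h ratios are described without a test and no group is tested against 6 h. Every value is a log2 ratio of the Cy5 over the Cy3 signal of 1 array unless said otherwise, and a probe was called at a limma adjusted p under 0.05 together with a change of at least 1.5-fold.

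Pups of the NMRI strain were used 5 days after birth, and each labelled RNA was a pool of ipsilateral hemispheres. In the Mg groups, pups given 600 mg/kg MgSO4 (Cy5) were set against controls (Cy3) after 3 h (n = 4), 6 h (n = 7), 12 h (n = 4) and 24 h (n = 4). In the HI groups, pups with a permanent right carotid ligature followed by hypoxia (hypoxia-ischemia, HI) were set against controls after 3 h and 12 h (n = 3 each). In the MgHI groups, MgSO4 was given before HI, again with 3 arrays at 3 h and 3 at 12 h. The GEO labels give subcutaneous injection and PBS-treated controls, while the methods give intraperitoneal injection and untreated controls. The treatment label of the HI arrays also names MgSO4 for the Cy5 sample, which their titles do not, and here the titles were followed (HI alone). For the MgHI arrays the labels name MgSO4-treated naive pups as the Cy3 reference and the methods name HI pups, so MgHI values are given only as higher in Cy5 or in Cy3. No array had its dyes exchanged, so a constant preference of a probe for 1 dye cannot be told apart from a ratio other than 0, whereas it cancels in a difference between groups.

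Kalirin (Kalrn) and Trio are large, closely related signalling proteins that act on the actin cytoskeleton of growing axons and dendritic spines. Both genes give rise to several protein isoforms. Celf4 is an RNA-binding protein of neurons that acts on splicing and on the stability and translation of mRNA. Icmt methylates the carboxyl end of prenylated proteins, small GTPases among them, and Kmt5b (also called Suv420h1) adds methyl groups to lysine 20 of histone H4. A probe reads only the transcripts that contain its target, so probes of 1 gene can differ where its transcripts differ. The probe sequences and their places in the transcripts were not used here.

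Of the 17 probes, 15 were well above background often enough to be tested in all 8 groups. Kalrn had 6 probes, of which A_55_P2095814, A_55_P2095844 and A_66_P108214 carried the accession of 1 RefSeq transcript (called the first transcript here) and A_55_P2095820, A_55_P2160623 and A_55_P2160628 that of another (the second transcript). The 2 that failed were both of Kalrn: A_55_P2160628 was well above background in Cy3 on 3 of 31 arrays and A_66_P108214 on 3, and neither was tested in any group. Trio had 3 probes, Celf4 had 2 and Icmt had 3, each set under 1 transcript accession. Of the 3 Kmt5b probes, A_55_P2048398 and A_55_P2144461 shared a transcript accession and A_55_P2144456 had another. The least bright tested probe was Kalrn A_55_P2095820, above background in Cy3 on 18 arrays and in Cy5 on 24.

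At 6 h the probes of Trio, Kalrn and Icmt moved to both sides of 0. Trio A_55_P2006861 ranged from -1.34 to 2.09 with a median of 1.16, while Trio A_55_P2165314 ranged from -1.07 to 0.61 with a median of 0.09. Kalrn A_55_P2095844 ranged from -0.46 to 1.80 (median 0.93) and Kalrn A_55_P2160623 from -1.05 to 1.01 (median -0.52). Icmt A_55_P2096530 ranged from -1.67 to 2.30 (median -0.53) and Icmt A_55_P2096535 from -0.26 to 0.90 (median 0.55). Both Celf4 probes had a median below 0 (-0.39 and -0.31), A_55_P2021413 ranging from -0.86 to 0.58 and A_55_P1992572 from -0.64 to 0.81.

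The 6 h arrays were not alike. Arrays 3 and 7, which lay on the same slide, stood apart from the other 5: the mean of Trio A_55_P2006861 was -0.66 on these 2 arrays and 1.35 on the other 5, that of Icmt A_55_P2096530 was 1.70 and -0.91, and that of Celf4 A_55_P2021413 was 0.56 and -0.51. Over all probes, the correlation between pairs of 6 h arrays ran from -0.46 to 0.88. The share of probes well above background in Cy3 was lowest on arrays 3 (49.9%) and 7 (45.2%) of all 31. Across all probes the 6 h fit called 5 of 17636 (0.0284%).

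**Figure D1:**
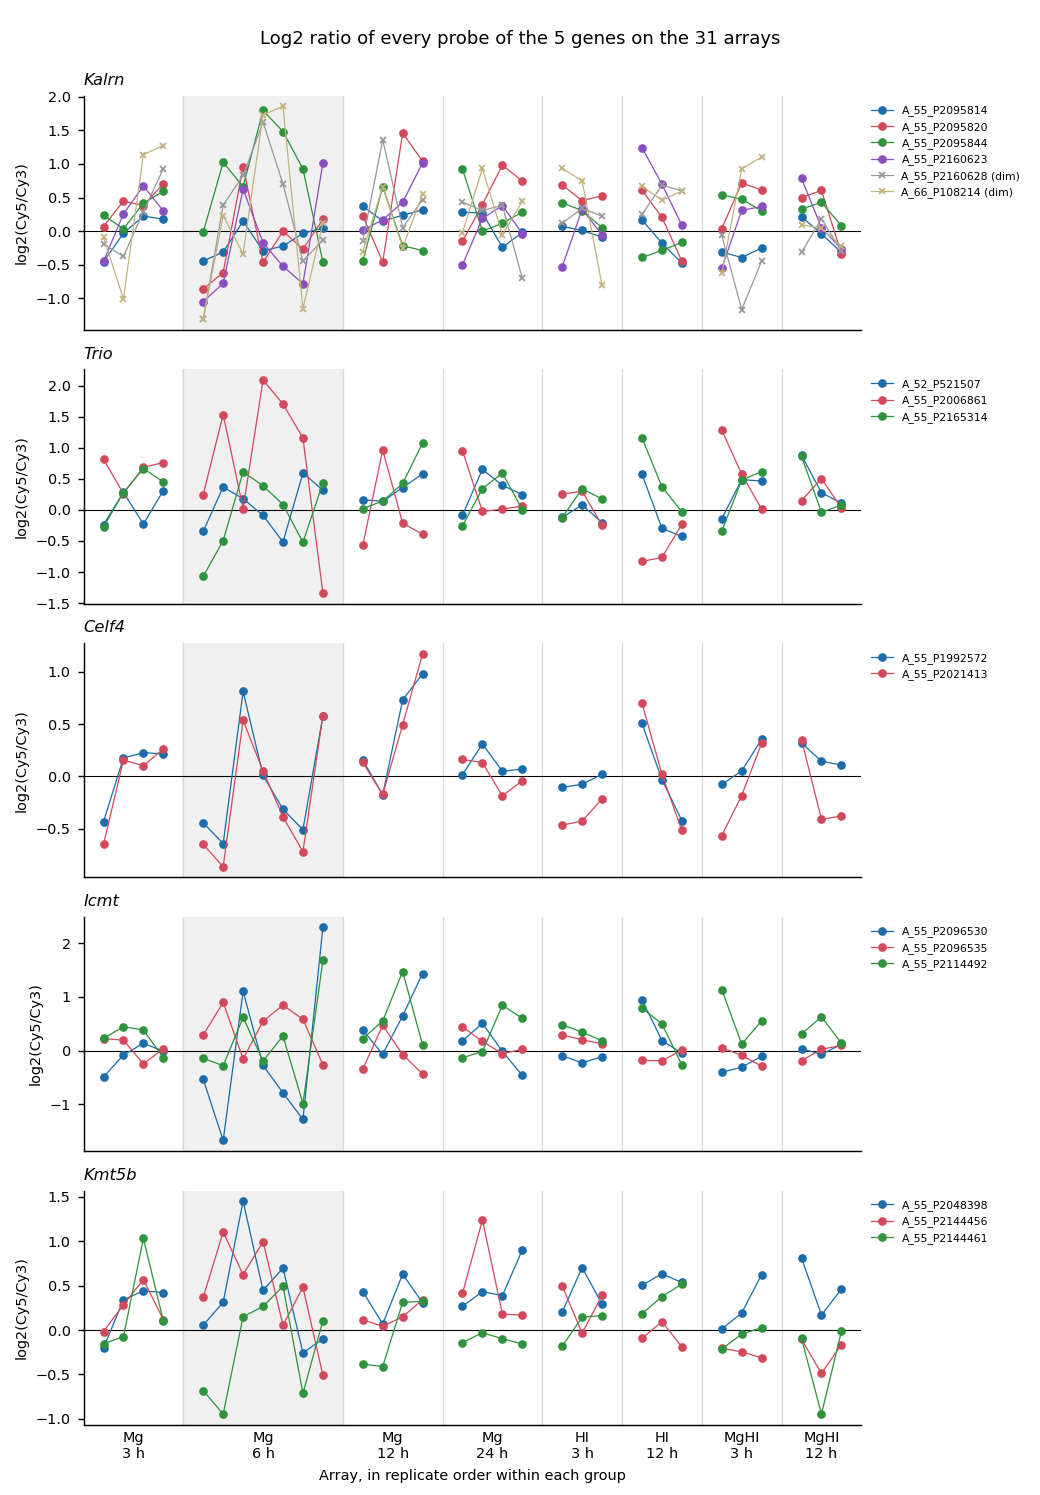
Log2 ratio (Cy5 over Cy3) of each of the 17 probes on the 31 arrays, 1 panel per gene and 1 colour per probe; lines join arrays of 1 group only to help follow a probe, crosses mark the 2 dim probes of Kalrn, and the shaded block holds the 6 h arrays that chose the genes. The 2 probes of Celf4 rise and fall together, whereas Trio A_55_P2006861 and Trio A_55_P2165314 lie on opposite sides on many arrays, as at HI 12 h array 1 (-0.83 and 1.16).

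Outside 6 h, no member probe was called in any of the 7 groups. The share called over all probes was 0% of 18646 at Mg 3 h, 0% of 17864 at Mg 12 h, 0.00555% of 18029 at Mg 24 h, 3.79% of 18915 at HI 3 h, 0.0106% of 18924 at HI 12 h, 7.63% of 19252 at MgHI 3 h and 0% of 19263 at MgHI 12 h. Where the count over all probes was 0, an unadjusted p under 0.05 was met by 1683 probes at Mg 3 h, 2797 at Mg 12 h and 5128 at MgHI 12 h. At HI 3 h, 2 member probes had an adjusted p under 0.05, both with a change under 1.5-fold. An adjusted p under 0.05 at any size of change was met by 14.3% of all probes there.

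For Kalrn, probe A_55_P2095820 of the second transcript gave 0.69, 0.45 and 0.53 on the HI 3 h arrays. All 3 were above 0, and the mean was 0.56 (SE 0.07, limma adjusted p = 0.0226, n = 3), under the fold required. Without array 2 it was 0.61 (adjusted p = 0.0423) and was called, where 3.26% of all probes were. This is the least bright of the tested probes: with another background correction (normexp) its mean was 0.10 (adjusted p = 0.236), and with no background subtraction it was 0.17. Another probe of that transcript, A_55_P2160623, gave -0.53, 0.33 and -0.06 on the same arrays, so it lay on both sides of 0. At HI 12 h it was A_55_P2160623 that was above 0 on each array, with 1.24, 0.70 and 0.09 (mean 0.68, SE 0.23, limma adjusted p = 0.146), while A_55_P2095820 gave 0.61, 0.21 and -0.45. The mean of A_55_P2095820 was also above 0 without HI, with 0.40 at Mg 3 h, 0.57 at Mg 12 h and 0.49 at Mg 24 h. Its mean was 0.12 at HI 12 h, and it was higher in Cy5 at MgHI 3 h (0.45) and MgHI 12 h (0.26). For this probe HI 3 h minus Mg 3 h was 0.15 (SE 0.39) and was not called. Its ratio at HI 3 h was therefore not shown to be particular to HI.

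The Kalrn probes of the first transcript are described next. A_55_P2095814 had the smallest spread of the Kalrn probes tested, with an SD of 0.26 over the 24 arrays other than 6 h. It gave 0.07, 0.01 and -0.09 at HI 3 h and 0.17, -0.18 and -0.48 at HI 12 h. A_55_P2095844 gave 0.42, 0.31 and 0.05 at HI 3 h (mean 0.26, limma adjusted p = 0.114) and -0.39, -0.29 and -0.17 at HI 12 h (mean -0.28, limma adjusted p = 0.199). It was thus above 0 on every HI 3 h array and below 0 on every HI 12 h array, and neither mean passed the test.

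For Trio, A_55_P2006861 gave 0.82, 0.26, 0.69 and 0.76 at Mg 3 h, the lowest p of any member probe in the Mg groups tested (mean 0.63 ± 0.25 SD, n = 4, limma adjusted p = 0.224). At HI 12 h it gave -0.83, -0.76 and -0.23 (mean -0.61, SE 0.16, limma adjusted p = 0.102), all below 0. On the same arrays Trio A_55_P2165314 gave 1.16, 0.37 and -0.03 (mean 0.50, limma adjusted p = 0.242) and Trio A_52_P521507 gave 0.58, -0.30 and -0.43. The first 2 probes were therefore on opposite sides of 0 on arrays 1 and 2. All 3 Trio probes carried the same transcript accession.

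The calls at HI 12 h depended on array 3. It gave -0.23 for Trio A_55_P2006861, -0.03 for Trio A_55_P2165314, 0.09 for Kalrn A_55_P2160623 and -0.27 for Icmt A_55_P2114492, each nearer 0 than arrays 1 and 2 or on the other side of it. These are the 4 probes that gained a call without array 3. For others, such as Kalrn A_55_P2095814 and Kmt5b A_55_P2144461, array 3 was the farthest from 0. Without array 3 the calls over all probes rose from 2 to 3330 of 18296 (18.2%). In that fit 4 member probes were called: Trio A_55_P2006861 (-0.80, limma adjusted p = 0.0104), Trio A_55_P2165314 (0.77, adjusted p = 0.0263), Kalrn A_55_P2160623 (0.97, adjusted p = 0.00812) and Icmt A_55_P2114492 (0.64, adjusted p = 0.0244). The 2 probes of Trio were then called in opposite directions. With 2 arrays left, the pair differences within a gene gave 0 calls of 4895, with 1019 at an unadjusted p under 0.05.

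For Celf4, A_55_P2021413 gave -0.46, -0.43 and -0.21 at HI 3 h. All 3 were below 0, with a mean of -0.37 (SE 0.08, limma adjusted p = 0.0434, n = 3), which is under 1.5-fold. It was -0.43 with normexp (adjusted p = 0.00405), and without array 1, 2 or 3 the adjusted p was 0.0963, 0.131 and 0.0647. Its partner A_55_P1992572 gave -0.10, -0.07 and 0.02 there. In the Mg 12 h group the 2 probes gave 0.13, -0.17, 0.50 and 1.17 and 0.16, -0.18, 0.73 and 0.98 on arrays 1 to 4, both lowest on array 2 and highest on array 4, and neither passed the test.

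Icmt A_55_P2096530 gave 0.38, -0.07, 0.65 and 1.44 at Mg 12 h and 0.95, 0.19 and -0.05 at HI 12 h, so its spread within groups (SD 0.63 and 0.52) was as large as its means (0.60 and 0.36). Icmt A_55_P2096535, the brightest of the 3, gave -0.34, 0.47, -0.07 and -0.44 at Mg 12 h and -0.18, -0.19 and 0.01 at HI 12 h. Icmt A_55_P2114492 was above 0 on all 3 arrays of HI 3 h (0.48, 0.34 and 0.18; mean 0.34, limma adjusted p = 0.054) and higher in Cy5 on all 3 of MgHI 3 h (1.14, 0.12 and 0.55; mean 0.60, limma adjusted p = 0.106). None of these passed the test.

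Kmt5b A_55_P2048398 gave 0.20, 0.70 and 0.29 at HI 3 h, 0.50, 0.63 and 0.54 at HI 12 h, and 0.27, 0.43, 0.39 and 0.90 at Mg 24 h. All of these values were above 0, as were those of MgHI 3 h (0.01, 0.19 and 0.63) and MgHI 12 h (0.81, 0.17 and 0.46), where that means higher in Cy5. At Mg 3 h it gave -0.20, 0.34, 0.44 and 0.42, so array 1 lay on the other side of 0. The HI 12 h mean was 0.56 (SE 0.12, 95% interval 0.27 to 0.85, limma adjusted p = 0.0811). At HI 12 h A_55_P2144461 was also above 0 on all 3 arrays (0.18, 0.38 and 0.52), whereas A_55_P2144456 lay on both sides of 0 (-0.09, 0.10 and -0.19).

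The remaining probes passed no test. Trio A_52_P521507, the brightest of its gene, had group means from -0.08 at HI 3 h to 0.42 at MgHI 12 h. Kmt5b A_55_P2144461 gave -0.14, -0.03, -0.10 and -0.16 at Mg 24 h, where Kmt5b A_55_P2144456 gave 0.41, 1.24, 0.18 and 0.17, so these lay on opposite sides of 0 on all 4 arrays.

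At MgHI 3 h no member was called on all 3 arrays, but each single array left out gave 1 call. Trio A_55_P2006861 gave 1.29, 0.58 and 0.01, and without array 3 its mean was 0.93 (limma adjusted p = 0.0312), where 9.22% of all probes were called. Kalrn A_55_P2095820 gave 0.04, 0.72 and 0.61 and reached 0.66 without array 1 (adjusted p = 0.00143; 11.8% of all probes). Icmt A_55_P2114492 reached 0.84 without array 2 (adjusted p = 0.0186; 5.94% of all probes). Array 1 was the highest for Trio A_55_P2006861 and the lowest for Kalrn A_55_P2095820.

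Differences between groups were then tested, which removes a constant dye preference of a probe. In every contrast with an Mg group the groups compared shared no slide, so slide and group cannot be told apart there. The spread was estimated over all 31 arrays, so the 6 h arrays that chose the genes entered it, and the contrasts were also fitted without them. No member probe was called in the 6 contrasts made. The shares called over all probes were 0.659% for HI 12 h minus HI 3 h, 0.398% for HI 3 h minus Mg 3 h, 1.11% for HI 12 h minus Mg 12 h, and 0% for MgHI 12 h minus MgHI 3 h, Mg 12 h minus Mg 3 h and Mg 24 h minus Mg 3 h. In those last 3 contrasts 319, 1012 and 322 probes had an unadjusted p under 0.05. The lowest member p was that of Kalrn A_55_P2095814 in HI 12 h minus Mg 12 h, with means of -0.16 and 0.27 and a difference of -0.43 (SE 0.17, limma adjusted p = 0.213). With the 6 h arrays left out of the fit no member probe was called either, and this probe had an adjusted p of 0.154. The shares called over all probes were then 1.06% for HI 12 h minus HI 3 h, 0.619% for HI 3 h minus Mg 3 h, 2.4% for HI 12 h minus Mg 12 h and 0% for the other 3, where 545, 2097 and 617 probes had an unadjusted p under 0.05 in the order above.

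The disagreement itself was measured as the difference in log2 ratio between 2 probes of a gene on the same array, for the 16 member pairs and for every such pair of every gene. At MgHI 3 h, 2 member pairs were called, both of Kalrn, against 17.9% of 5455 pairs of all genes. A_55_P2095814 minus A_55_P2095844 was -0.85, -0.87 and -0.55, so the second probe was the higher in Cy5 on all 3 arrays (mean -0.76 ± 0.18 SD, n = 3, limma adjusted p = 0.0175). A_55_P2095814 minus A_55_P2095820 was -0.35, -1.11 and -0.86 (mean -0.77 ± 0.39 SD, limma adjusted p = 0.0434). A count of 2 of 16 is not above the share of all pairs. With normexp the differences were -0.40 and -0.27 and neither was called, and without array 2 neither was (-0.70 and -0.60, adjusted p = 0.131 and 0.189).

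No member pair was called in the other groups. The shares over all pairs were 1.57% at HI 3 h and 0% at Mg 3 h, Mg 12 h, Mg 24 h, HI 12 h and MgHI 12 h, where 785, 894, 553, 1213 and 1867 pairs had an unadjusted p under 0.05. At HI 3 h, Kalrn A_55_P2095814 minus A_55_P2095820 was -0.62, -0.44 and -0.62 (mean -0.56, limma adjusted p = 0.0495), just under 1.5-fold. This pair was also below 0 on all 4 Mg 3 h arrays (mean -0.42, limma adjusted p = 0.213). So was A_55_P2095814 minus A_55_P2095844 there (mean -0.34, limma adjusted p = 0.293). At HI 12 h, Kalrn A_55_P2095814 minus A_55_P2160623 was below 0 on all 3 arrays (mean -0.84 ± 0.26 SD, limma adjusted p = 0.117), and the Trio pair A_55_P2006861 minus A_55_P2165314 was -1.99, -1.14 and -0.20 (mean -1.11, adjusted p = 0.199).

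Between groups, Kalrn A_55_P2095820 minus A_55_P2160623 turned from 0.64 at HI 3 h to -0.55 at HI 12 h, a difference of -1.20 (SE 0.35, limma adjusted p = 0.334; 0.209 with the 6 h arrays left out of the fit). No member pair was called in the 6 contrasts, in which 0.593% of all pairs were called for HI 12 h minus Mg 12 h and 0% in the other 5. Without the 6 h arrays no member pair was called, against 2.9% of all pairs for HI 12 h minus Mg 12 h and 0% in the other 5. An F test of equal means was made over the 7 groups without 6 h. Mg 3 h, the later Mg groups, and the HI and MgHI groups lay on separate slides, so slide and group cannot be fully told apart in it. By this test 1 member pair differed, against 36.8% of 4372 pairs of all genes. It was Kalrn A_55_P2095814 minus A_55_P2095844 (F = 3.54, limma adjusted p = 0.0441), whose group means ran from 0.34 at Mg 12 h to -0.76 at MgHI 3 h. With the replicate number as a block its adjusted p was 0.0911, and the pair that differed was Kmt5b A_55_P2144456 minus A_55_P2144461 (F = 5.37, adjusted p = 0.0167; 3.29 and 0.055 without the block).

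**Figure D2:**
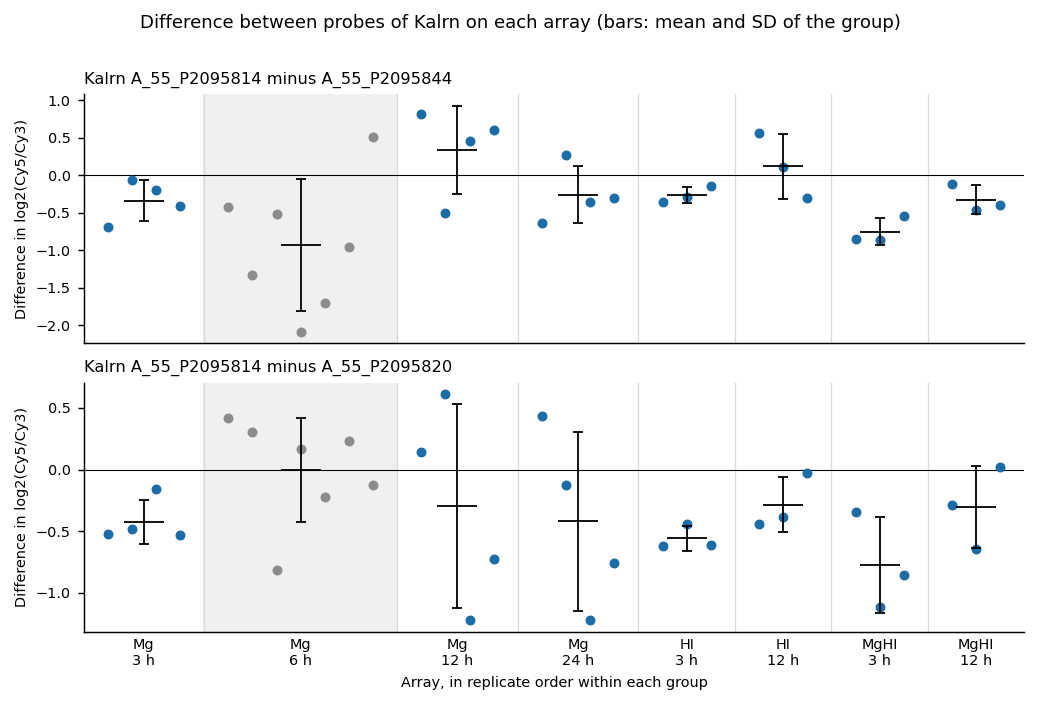
Difference in log2 ratio between 2 probes of Kalrn on each array (points), with the mean and SD of each group; the 6 h arrays (grey) were not tested. In both panels all 3 MgHI 3 h arrays lie below 0 (means -0.76 and -0.77), as do all 4 Mg 3 h arrays (means -0.34 and -0.42). The HI 3 h means are also below 0 (-0.26 and -0.56). In the panel of A_55_P2095844 the means at Mg 12 h (0.34) and HI 12 h (0.12) are above 0. Mg 12 h spans both sides in both panels.

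Whether the probes of a gene rose and fell together was described by Pearson's r over the 24 arrays other than 6 h, which share slides and groups and are not independent. Over all 4372 pairs tested in every group the median r was 0.41, and 18.8% lay below 0. Of the 16 member pairs 7 lay below 0. The Celf4 pair had r = 0.89 (Spearman 0.85). Trio A_55_P2006861 and A_55_P2165314 had r = -0.48 (Spearman -0.41), Kalrn A_55_P2095844 and A_55_P2160623 r = -0.48 (Spearman -0.37) and Icmt A_55_P2096530 and A_55_P2096535 r = -0.47 (Spearman -0.43). These 3 pairs stood at percentiles 2.29, 2.40 and 2.52 of all pairs. The genes were chosen by their probes at 6 h, and the Mg 12 h and 24 h arrays shared slides with the 6 h arrays. The number of member pairs below 0 and these ranks are therefore descriptions and not independent support. Without the 2 arrays farthest out the r of these 3 pairs was -0.26, -0.48 and -0.22. The Trio pair and the Icmt pair each carried 1 transcript accession and the Kalrn pair 2. Over all genes, pairs under 1 accession had a median r of 0.44 (16.8% below 0, 3701 pairs) and pairs under different accessions 0.26 (29.8% below 0, 671 pairs).

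**Figure D3:**
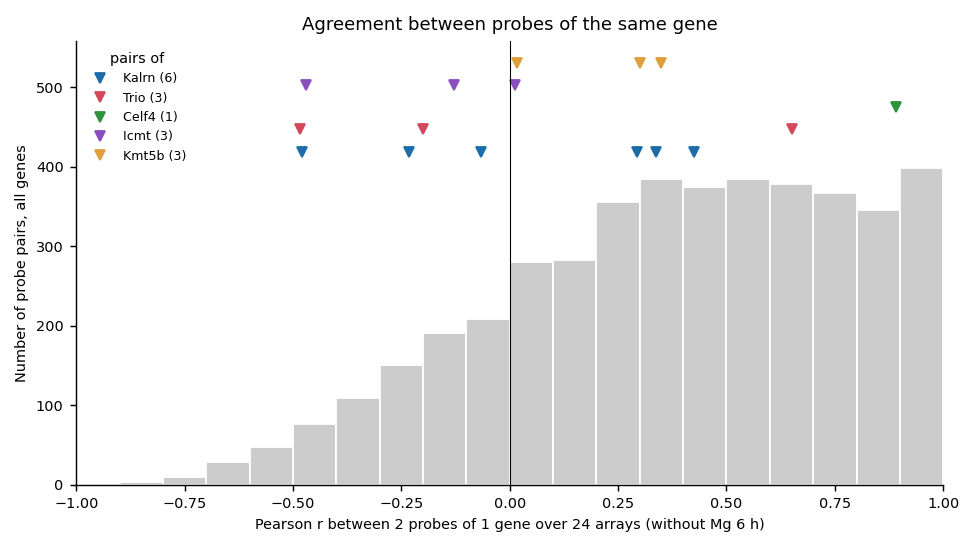
Number of probe pairs of the same gene (bars, all genes, 4372 pairs) by their Pearson r over 24 arrays, with the 16 member pairs as triangles, 1 row per gene. The Celf4 pair sits at 0.89 and 7 of the 16 lie left of 0, 3 of them near -0.48.

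Probes that went against their own gene went together across genes. Trio A_55_P2006861 and Kalrn A_55_P2095844 had r = 0.89 (Spearman 0.90) over the 24 arrays, 0.88 without the 2 arrays farthest out, 0.92 in the Mg groups and 0.91 in the HI and MgHI groups (12 arrays each). Among 16736 other probes, the Trio probe was the 17th most like Kalrn A_55_P2095844, and the Kalrn probe the 50th most like the Trio probe. Their partners were as close: Trio A_55_P2165314 and Kalrn A_55_P2160623 had r = 0.94 (Spearman 0.93), and each was the most like the other of all 16736. Icmt A_55_P2096535 followed the first set (r = 0.57 with the Trio probe and 0.58 with the Kalrn probe) and went against the second (-0.64 and -0.65).

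**Figure D4:**
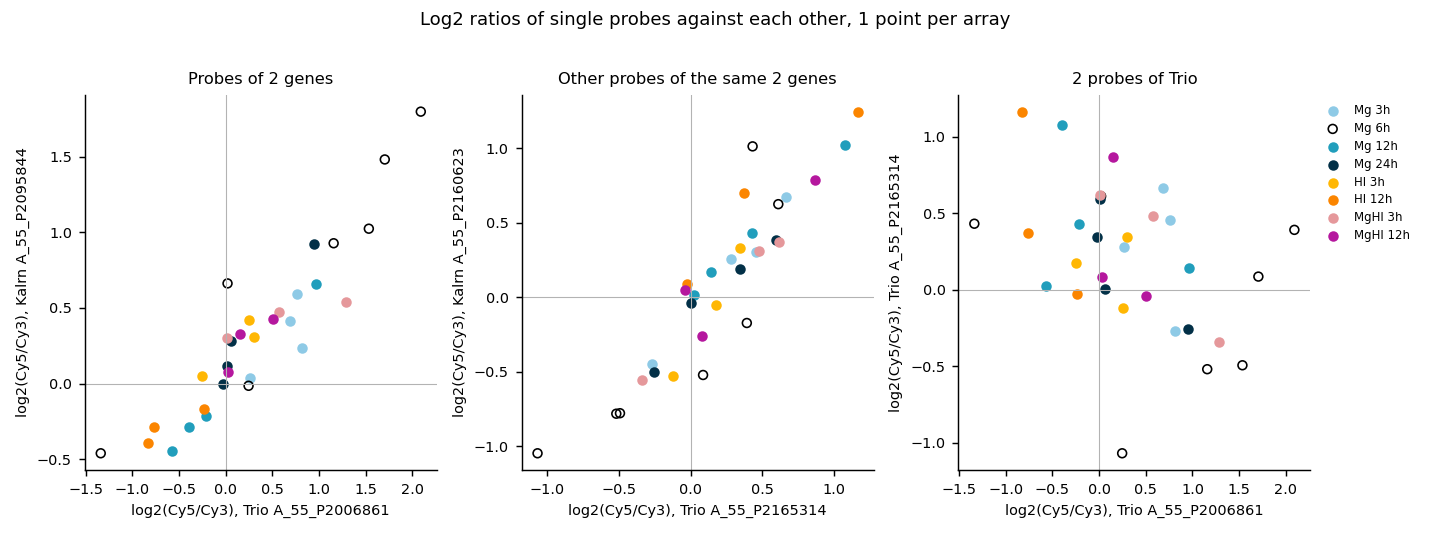
Log2 ratios of single probes against each other, 1 point per array, coloured by group, with the 6 h arrays as open circles. Trio A_55_P2006861 lies on a line with Kalrn A_55_P2095844 (left, r = 0.89 without 6 h) and Trio A_55_P2165314 with Kalrn A_55_P2160623 (middle, 0.94), while the 2 Trio probes of the right panel have r = -0.48.

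The ratios were also set against the main axis of variation among the arrays, as a description and without the 6 h arrays. The first principal component of 16737 probes over the other 24 arrays held 27.1% of the variance. Its lowest array was Mg 3 h array 1 (-0.37) and its highest Mg 12 h array 4 (0.48) and HI 12 h array 1 (0.45), while Mg 12 h array 2 scored -0.24 and HI 12 h array 3 -0.03, so arrays of 1 group lay on both sides of 0. Icmt A_55_P2096530 (r = 0.83), Kalrn A_55_P2160623 (0.82), Trio A_55_P2165314 (0.82), Celf4 A_55_P2021413 (0.81) and Celf4 A_55_P1992572 (0.78) followed it. Trio A_55_P2006861 (-0.81), Kalrn A_55_P2095844 (-0.73) and Icmt A_55_P2096535 (-0.69) went against it. An absolute r over 0.5 was found for 10 of the 15 member probes and for 44.5% of all probes. Kmt5b A_55_P2144456 (0.12) and Icmt A_55_P2114492 (0.14) followed it least.

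The genes whose ratio was most like that of each gene's brightest probe were taken over the 31 arrays, which include 6 h. For Kalrn A_55_P2160623 they were Srgap3 (r = 0.95), Myt1l (0.94) and Map1b (0.94), and for Celf4 A_55_P2021413 Marcks (0.95), Mapre2 (0.95) and Rab6b (0.95). For Trio A_52_P521507 they were Son (0.84), Smchd1 (0.83) and Gucy1a1 (0.79). For Icmt A_55_P2096535 they were Gm14635 (0.90), Nup214 (0.89) and Ppara (0.89), and for Kmt5b A_55_P2048398 Celf5 (0.77), Nrg3 (0.76) and Trak2 (0.74). Arrays shared slides and groups, so these r are descriptions.

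The signal of single channels, as log2 minus the 75th percentile of the array, differed by slide for some member probes. The split of slides 1 to 4 from slides 5 to 9 was chosen after these levels were seen. The ranks among all probes given below therefore only describe that split. Each slide holds several arrays and carried its own groups: slides 1 to 4 held Mg 6 h, 12 h and 24 h, slides 5 and 6 Mg 3 h, and slides 7 to 9 HI and MgHI. Trio A_55_P2006861 had a mean Cy3 level of 1.62 on slides 1 to 4 (15 arrays, -1.36 to 3.51) and of -0.65 on slides 5 to 9 (16 arrays, -1.52 to 0.29). This difference of 2.27 on the log2 scale was larger in size than that of 99.8% of 16870 probes, and in Cy5 it was 2.45. Icmt A_55_P2096530 went the other way, with -3.72 on slides 1 to 4 (-5.20 to -2.28) and -1.42 on slides 5 to 9 (-2.48 to -0.79), a difference of -2.30, larger than that of 99.9% of probes. Kalrn A_55_P2095844 differed by 1.42 (percentile 95.5). The other probes of these genes differed little: 0.47 for Trio A_52_P521507, -0.30 for Trio A_55_P2165314, 0.32 for Icmt A_55_P2096535, 0.10 for Icmt A_55_P2114492 and -0.10 for Kalrn A_55_P2160623.

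**Figure D5:**
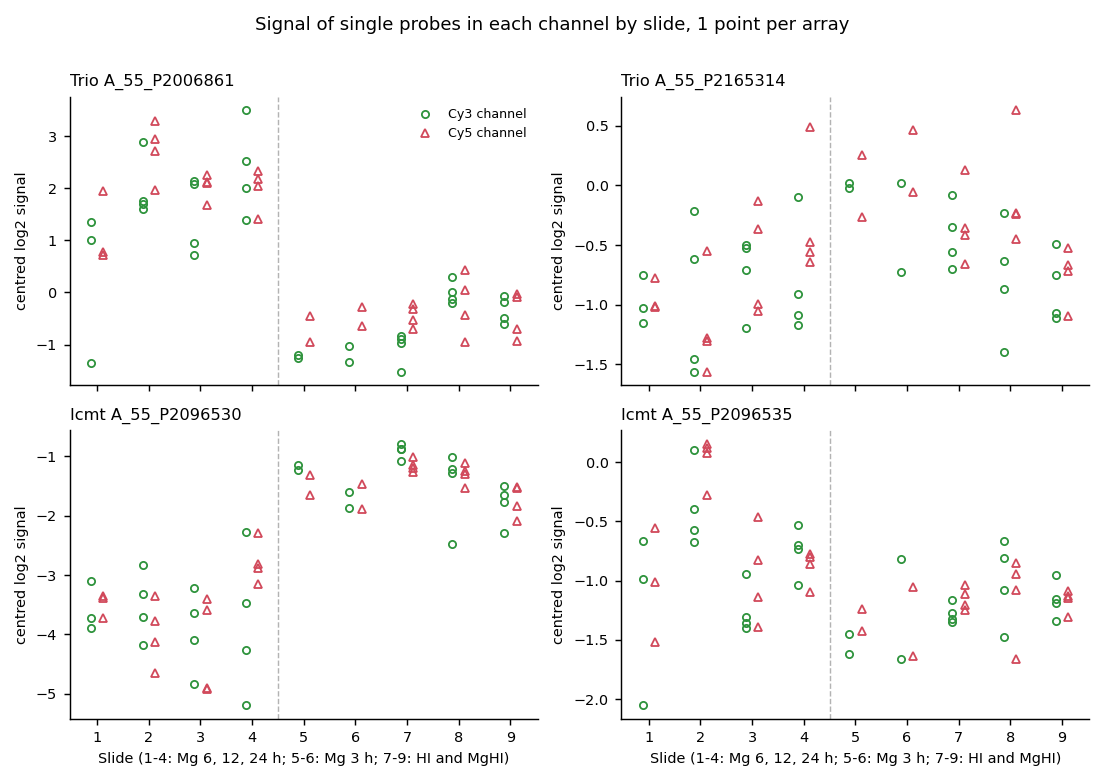
Level of 4 probes in the Cy3 (circles) and Cy5 (triangles) channel, as log2 signal minus the 75th percentile of the array, by slide; the dashed line parts slides 1 to 4 (Mg 6, 12 and 24 h) from slides 5 to 9. Trio A_55_P2006861 has a higher mean on slides 1 to 4 (Cy3 1.62 against -0.65) and Icmt A_55_P2096530 a lower one (-3.72 against -1.42). Both differences are seen in both channels. The ranges of these probes on the sets of slides overlap in Cy3 and not in Cy5. Those of the other probe of each gene overlap in both channels.

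The Cy3 channel of the Mg and HI arrays held control RNA, which was compared at the same time point. The Cy3 level of Trio A_55_P2006861 was 1.36, 1.75, 2.53 and 2.08 in the Mg 12 h controls and -0.13, -0.19 and -0.48 in the HI 12 h controls, without overlap. That of Icmt A_55_P2096530 was -3.73, -3.71, -3.48 and -4.83 in the Mg 12 h controls and, in the HI 12 h controls, -2.48, -2.30 and -1.49. Kalrn A_55_P2095844 was -1.23, -1.40, -1.43 and -1.79 against -2.20, -2.69 and -3.17. These 3 of the 15 member probes did not overlap and differed by at least 1 on the log2 scale, against 13.2% of 17614 probes. At 3 h, where both sets of controls lay on slides 5 to 8, it was 1 of 15 (Kalrn A_55_P2095820, -5.15 in HI controls and -3.82 in Mg controls), against 7.93% of 18074 probes, and Trio A_55_P2006861 was -0.67 and -1.21. The 2 sets of controls came from separate experiments on separate slides, so slide, hybridisation and the animals cannot be told apart. The 2 channels of an array moved together for these probes (r of Cy3 and Cy5 level over 31 arrays 0.85 for Trio A_55_P2006861 and 0.83 for Icmt A_55_P2096530; median of all probes 0.80). The ratio takes out what both channels share, but its mean also differed between slides. On slides 1 to 4 it was 0.82, 0.74, 0.57 and -0.38 for Trio A_55_P2006861. For Icmt A_55_P2096530 it was 0.10, -0.46, -0.25 and 1.01. These slides include the 6 h arrays, and the difference was not tested.

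One spot level stood alone. Trio A_52_P521507 had Cy3 levels of 1.63, 1.67 and 1.54 on Mg 3 h arrays 1, 2 and 4 and -2.96 on array 3, where Cy5 was -3.18, so its ratio there (-0.23) came from a far lower signal in both channels.

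Lists of genes from the pathways of the members were counted at HI 3 h, 4 of which are given first. They are not all the lists examined, as the processing notes say. Over 14560 genes the median was -0.03, with 432 called up and 248 down. None was called of 26 Rac and actin pathway genes, 21 neuronal RNA-binding genes, 10 genes of prenyl processing and 22 of histone lysine methylation. The nearest were Suv39h2 (0.58, adjusted p = 0.0165) and Ehmt1 (0.53, adjusted p = 0.0174), both histone H3 methyltransferases, Qk (0.52, adjusted p = 0.029) and Mbnl2 (0.47, adjusted p = 0.0271), both splicing regulators. Neither the Qk nor the Mbnl2 probe was the brightest of its gene. The other tested probes of Qk lay between 0.02 and 0.17. At HI 12 h and in the 3 Mg groups tested no gene of these 4 lists was called. At MgHI 3 h, 2 of 26 Rac and actin genes, 1 of 21 RNA-binding genes and 1 of 22 histone methylation genes were higher in Cy5, where 1126 of 14716 genes were higher in Cy5 and 283 in Cy3. Of 3 tested genes that the study had named with Kalrn on these samples, none was called at HI 3 h. At MgHI 3 h 2 were called, both higher in Cy5, which is not independent evidence of a direction. By the brightest probe of each gene the ratios there lay between -0.41 and -0.02. Those calls therefore came from other probes of the genes.

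The injury and the tissue were checked with marker genes. All 8 immediate early genes listed were called up at HI 3 h, with a median of 2.75 and Fos at 5.52 (SE 0.15, limma adjusted p = 0.00189). At MgHI 3 h their median was 0.10 and 2 of 8 were called, both higher in Cy5. The Cy3 reference there is naive pups given MgSO4 by the labels and HI pups by the methods. With HI pups both channels would be injured, so an effect of MgSO4 on these genes cannot be read from that median. Of the other cell type lists, 1 of 7 oligodendrocyte lineage genes was called up at HI 3 h (Mbp, 0.61) and none of 14 neuron, 6 astrocyte, 7 microglia, 4 endothelial, 5 blood and 5 choroid plexus genes. All 14 neuronal markers were measured, and the log2 ratio of their summed signal ran from 0.01 to 0.17 on the HI 3 h arrays, from -0.08 to 0.38 at HI 12 h and from -0.33 to 0.55 at Mg 12 h. The summed choroid plexus markers ran from 0.43 to 1.15 at HI 12 h and from -0.50 to 2.85 at Mg 12 h, and its part in the member ratios was not tested. In RNA pooled from ipsilateral hemispheres, fewer cells of a type and less RNA per cell cannot be told apart.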

How the data were processed

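RNA pools were hybridised to 2-colour 4x44K mouse arrays, and the authors processed the scans with Agilent Feature Extraction (10.5.1.1), which subtracted background and balanced the dyes (LOWESS). Its processed intensity columns were used as deposited. The deposited series table of log10 ratios served as an alternative. Log2 Cy5 over Cy3 ratios were computed from these, without non-uniform or outlying spots. Of 39429 non-control probes, 27421 matched 1 symbol in the RefSeq table. A probe was fitted where Cy3 or Cy5 was marked well above background on 66.7% or more of the group, by limma (3.58.1; R 4.3.3) with Benjamini-Hochberg adjustment over all probes or all pairs. The fits were tested on simulated data. Groups and replicate numbers came from the titles, and the labels call the replicates biological. The named genes were all member probes, the 3 genes most like the brightest probe of each gene, and up to 4 genes per list by adjusted p at HI 3 h or 12 h. Lists covered the Rac and actin pathway, neuronal RNA binding, prenyl processing, histone lysine methylation, genes named with Kalrn by the study, immediate early genes and cell type markers. The members and lists were chosen with earlier results of these data known. Alternatives were other background corrections, filters, blocks, fits and left-out arrays. The number of arrays limits the precision. Probe sequences and coordinates were not used here. One further gene list, which had calls at HI 3 h and MgHI 3 h, is not reported here, so the lists given do not stand for all lists examined.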

Additional observations from a re-analysis of the deposited data

Results flagged for a closer look

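In groups of 4 to 10 arrays, 60 sets of member values were examined for 1 array far from the others, and 3 were found, where chance gives about 1 in 20. Celf4 A_55_P1992572 was -0.43 on Mg 3 h array 1 and 0.18 to 0.23 on the others. Kmt5b A_55_P2048398 was -0.20 on the same array and 0.34 to 0.44 on the others. Trio A_55_P2006861 was 0.95 on Mg 24 h array 1 and -0.02 to 0.06 on the others.

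The difference Kalrn A_55_P2095814 minus A_55_P2095844 differed among the 7 groups other than 6 h by limma's F test (adjusted p = 0.0441), as did 36.8% of all probe pairs. Its adjusted p was 0.0372 with slide as a random block and 0.0297 without HI 12 h array 3. With the replicate number as a block it was 0.0911, so the pair no longer differed.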

How the results depend on the processing

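Counts of called member probes and pairs stayed within 1.5 times in 347 recomputations and moved further in 20. Only the counts of pairs at MgHI 3 h and in the F test were above 0 in the main fits. A count of 0 that stayed 0 was taken as unchanged, so the 347 say little about the results. For member probes, the methods' t-test without adjustment called 1 at Mg 3 h (Trio A_55_P2006861), and dropping the minimum fold called 2 at HI 3 h. For member pairs, the methods' t-test without adjustment called 1 at Mg 24 h, 2 at HI 12 h, 2 at MgHI 12 h and 1 at MgHI 3 h, and dropping the minimum difference called 1 at HI 3 h. The 2 pairs called at MgHI 3 h became 0 with normexp, 0 with no background subtraction, 1 with no filter, 1 in a fit over all 8 groups and 0 by the methods' t-test after adjustment. The fit over all groups also called 1 at MgHI 12 h. The cause was not tested. Leaving out single arrays gave 0 to 1 member probes at HI 3 h, 0 to 4 at HI 12 h and 1 to 1 at MgHI 3 h, and 0 to 2 pairs at MgHI 3 h. The dropped minimums, the F test without HI 12 h array 3 and the contrasts and principal component without the 6 h arrays were chosen after seeing the data. So was the split of the slides used for the signal levels.

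Over all probes, HI 12 h had 2 calls and up to 3330, HI 3 h had 717 (0 to 2707), MgHI 3 h 1468 (0 to 2233), and its pairs 974 (0 to 1575). Mg 3 h, Mg 12 h and MgHI 12 h had 0 (up to 112, 214 and 894).

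Replicate numbers did not pair the arrays (correlations of same-numbered arrays -0.50 to 0.29). With the replicate block no member probe or pair contrast was called, as without it. Calls over all pairs in HI 12 h minus Mg 12 h went from 28 to 65 with that block. They were 137 without the 6 h arrays and 0 with scan day as a random block. The F test went from 1611 to 1436 with the replicate block, with the Kalrn pair at an adjusted p of 0.0911. Slide as a random block could not be fitted in groups of 3 arrays and was not run at Mg 12 h and 24 h, where each array lay on its own slide. Slide as a fixed block could be fitted only within the HI and within the MgHI groups.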
